A study of Rattus norvegicus with 10 samples.

Results

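The H3K4me1 list held 92421 of the 252939 intervals deposited in 6 peak lists from RCS, an established line of rat chondrosarcoma cells. It was taken whole: every interval of the file for the H3K4me1 immunoprecipitation was used, on 20 autosomes and X, in coordinates of the rat build rn5 printed counting from 1. The labels give no genotype, treatment or time for these cells, and all libraries come from this cell line. The list came from 1 library, and its background was 1 input library, prepared without antibody and shared by 3 methylation marks. The other lists, 1 library each, were H3K27ac (50834 intervals), H3K4me3 (23116), H3K9me3 (52431), SOX9 (14782) and SOX6 (19355). No antibody had a replicate library, replicate error is therefore unknown throughout, and the ranges given with shares and rates cover counting error only. An rn5 annotation was not used here, so intervals are placed by coordinate and not by gene.

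Monomethylation of lysine 4 on histone H3 is laid down mainly by the methyltransferases KMT2C and KMT2D at enhancers, and it also flanks active promoters, where the trimethylated form occupies the start site. An enhancer that carries H3K4me1 may be active, and is then usually acetylated at H3K27, or poised without acetylation. At an active element the histones next to the bound transcription factors carry the marks while the centre is often depleted of nucleosomes, so that one element can appear as neighbouring peaks. In chondrocytes, SOX9 and SOX6 bind such elements near cartilage genes.

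Most H3K4me1 intervals were short, and a minority of wide ones held much of the marked sequence. The median width was 945 bp (quartiles 657 and 1492 bp), the narrowest interval was 285 bp and the widest 20893 bp. Intervals under 1000 bp made up 53.6% of the list. The 4638 intervals of 3000 bp or wider were 5.02% of the list but 17.4% of its covered length, and 982 reached 5000 bp. Together the intervals covered 116 Mb, which is 4.004% of the 2902 Mb that lie before the last interval end of any list on each chromosome.

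The widths had a sharp lower shoulder. Between 575 and 600 bp there were 6648 intervals, against 3634 in the 25 bp below and 3345 in the 25 bp above, and the most frequent width was 598 bp with 373 intervals. These intervals also had the lowest scores, with a median of 53.86 from 575 to 600 bp, 55.9 in the class below and 66.8 in the class above. The score is the authors' own, and no source used here states its scale. It was used only to rank intervals within this list. It started at 50.02, had a median of 154.55 (quartiles 79.4 and 370), and was 3100 for 1136 intervals, with a further 112 above that value and up to 3233.

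Width and score moved together over most of the list. Across all 92421 intervals Spearman's rho was 0.898, and by chromosome it ran from 0.843 to 0.908. These are descriptions across the sites of 1 library, in which both measures come from the same reads. When the list was divided into 10 equal groups by score, the median width was 584 bp in the lowest group, 917 bp in the group just below the median score, 1490.5 bp in group 8 and 2868.5 bp in the highest. Intervals with a score above the list median had a median width of 1491 bp. No interval of 3000 bp or wider had a score below the list median, and 72 of the 9242 intervals above the 90th percentile of score were narrower than 1000 bp.

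The relation turned at the low end. Within the lowest group by score rho was -0.35, and no interval there was narrower than 512 bp. The 2373 intervals under 500 bp had a median score of 75.6, above the 57.9 of the 13869 intervals from 500 to 600 bp and close to the 76.6 of those from 600 to 750 bp. At the high end, the 1248 intervals with a score of 3100 or more had a median width of 5114.5 bp, but their range began at 501 bp. This set therefore holds intervals of very unlike width, and the score does not rank the 1136 of them that tie at 3100.

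**Figure D1:**
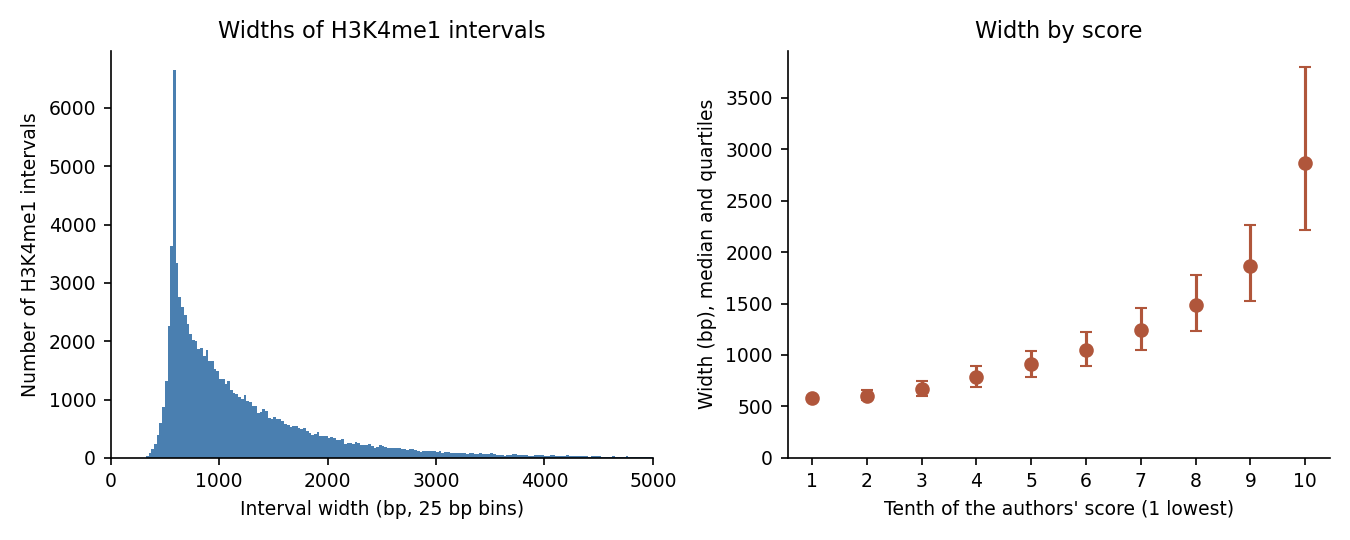
Left, number of H3K4me1 intervals by width in bins of 25 bp, up to 5000 bp; right, median width in bp (points) with quartiles (bars) in 10 equal groups by the authors' score. The bin from 575 to 600 bp stands out with 6648 intervals, and the median width goes from 584 bp in the lowest group to 2868.5 bp in the highest.

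The widest intervals lay on 5 chromosomes and were all acetylated in part. In the highest of the 10 groups by score, 83.4% of all centres lay in an H3K27ac interval, and a wider interval has more room to meet one. The widest, on chromosome 5 from 83172495 to 83193387, was 20.9 kb long and met 7 H3K27ac intervals, 1 H3K4me3 interval and 2 SOX6 intervals. The next, on chromosome 10 from 109020159 to 109040935, was 20.8 kb long and belonged to a run of 11 H3K4me1 intervals. The others were chr16:50172139-50191044, chr19:36816423-36835188 and chr3:179809102-179827326, and each of these met both SOX9 and SOX6. All 5 had a score of 3100. By value, the 5 highest scores belonged to narrower intervals of 3111 to 4435 bp. Since 1136 intervals share the score of 3100, whether a value above it stands for a stronger signal was not tested. A pair of them tied at 3233 on chromosome 6, from 146953852 to 146958071 and from 7143289 to 7146528, and neither met a SOX9 or SOX6 interval. The rest of these 5, on chromosomes 4, 3 and 16, each met both factors. For scale, in the highest of the 10 groups by score SOX9 lay at 19.0% of centres and SOX6 at 19.3%, so lacking them is usual there.

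H3K4me1 intervals were unevenly spaced. The median gap from the end of one interval to the start of the next was 3966.5 bp, while the mean was 30060 bp. Gaps of 100 kb or more numbered 4850 of 92400 and held 63.3% of all the gap length. At the short end 29.2% of gaps, or 26981, were under 1 kb. No neighbouring intervals overlapped or touched, and the shortest gap was 1 bp.

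Short gaps were commonest under 100 bp and thinned out smoothly. There were 2753 gaps under 50 bp, 2832 from 50 to 100 bp and 2182 from 150 to 200 bp. Just inside the 1 kb limit, from 950 to 1000 bp, there were 678, between intervals with a median score of 181, and just outside it, from 1000 to 1050 bp, there were 658, with a median of 182. The limit of 1 kb thus divides a continuous distribution, and the share of intervals called close moves with it.

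With the limit at 1 kb, 44122 intervals had a close neighbour, which is 47.7% (95% Wilson interval 47.4% to 48.1%). The remaining 48299 stood alone. Of the close ones, 23068 formed 11534 isolated pairs, 10206 formed runs of 3, 4912 runs of 4, 5381 runs of 5 to 9, and 555 formed 49 runs of 10 or more. Runs of 2 or more held 51.5% of the covered length.

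Members of longer runs were wider and had higher scores. Lone intervals had a median width of 909 bp and a median score of 134, and members of pairs 948 bp and 164. In runs of 5 to 9 the medians were 1133 bp and 263, and in runs of 10 or more 1376 bp and 429. The quartiles of score overlapped between all of these classes, from 73.3 to 295 for lone intervals and from 137 to 1329 for members of the longest runs. Of the 1248 intervals with a score of 3100 or more, 971 (77.8%) had a neighbour within 1 kb. At a given score, however, close intervals were slightly narrower than lone ones in each of the 10 groups by score. The medians were 1001 bp and 1089 bp in group 6, 1788 bp and 1938 bp in group 9, and 2856 bp and 2886 bp in the highest group.

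**Figure D2:**
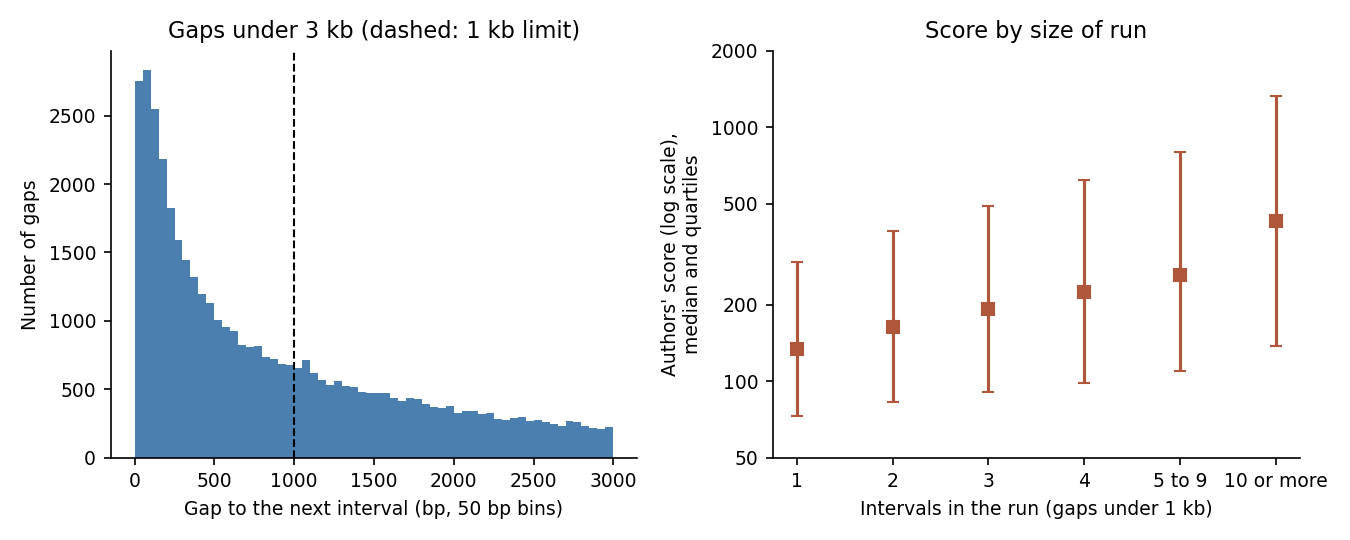
Left, number of gaps between neighbouring H3K4me1 intervals by length in bins of 50 bp, up to 3 kb, with the 1 kb limit dashed; right, median score (squares, log axis) with quartiles (bars) by the number of intervals in a run. Gap numbers pass through 1 kb without a step (678 and 658 on its sides), and the median score goes from 134 for lone intervals to 429 in runs of 10 or more.

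Members of an isolated pair often differed in score. The median pair spanned 2537 bp, with a gap of 310 bp (quartiles 123 and 593 bp) and 1484 bp between the centres of its members. The higher score was a median 2.31 times the lower one (quartiles 1.43 and 4.48). Over all neighbours the median ratio was 2.55 for gaps under 200 bp and 2.54 from 1 to 2 kb. It was 2.40 from 5 to 10 kb, 2.27 from 10 to 50 kb and 2.03 from 50 kb on. The median score of the members was 205 in the first of these classes and 112 in the last. The ratios are therefore not like for like. In a pair the wider member was a median 1.61 times the width of the narrower. In 45.4% of pairs one member lay above the list's median score and the other did not, in 29.3% both did and in 25.3% neither did. The upstream and downstream member had the higher score about equally often by coordinate, the left one in 49.7% of untied pairs (48.8% to 50.6%).

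The scores of partners in a pair were only weakly alike. Spearman's rho between the scores of the left and right members was 0.131 over 11534 pairs and that between their widths was 0.0782. Over all gaps, rho for score was 0.152 under 200 bp, 0.160 from 200 to 500 bp, 0.116 from 500 to 1000 bp and 0.0461 from 10 to 50 kb. With scores ranked within each chromosome the value for isolated pairs was 0.124. Neighbours share their library, and these weak values are given as a description; local copy number and base composition were not measured.

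In 10 isolated pairs both members reached a score of 3100. Among these ties the 5 with the greatest summed width are named, and for none of the 5 did H3K4me3, SOX9 or SOX6 cover the middle of the gap. Over all 26981 gaps under 1 kb the shares were only 16.8%, 5.01% and 4.66%, so this does not set these pairs apart. The first lay on chromosome 5 from 157287450 to 157305380, with members of 5244 and 12648 bp set 39 bp apart. It held 4 H3K27ac, 2 SOX9 and 2 SOX6 intervals, and its gap carried none of them at the middle. The pair on chromosome 6 from 9251169 to 9264964 had nearly equal members of 6336 and 6567 bp, with the widest gap of the set, 893 bp, and H3K9me3 at its middle. The pair on chromosome 8 from 126412002 to 126424769 was likewise even, with 6141 and 6347 bp around 280 bp. The other pairs were chr7:12075863-12088412 and chr10:109001647-109013270, and the gap of the latter was acetylated at its middle.

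The runs with most intervals differed in score and in the other marks they met. Since gaps within a run are under 1 kb, coverage is high in runs of every size, from 84.7% of the length in runs of 4 to 88.6% in runs of 10 or more. The largest by number held 18 intervals over 48.2 kb on chromosome 4 from 64753334 to 64801500, with 89.7% of its length covered, 22 H3K27ac intervals, 3 SOX9 and 10 SOX6 intervals. The run on chromosome 9 from 29249597 to 29326634 held 15 intervals over 77.0 kb at 95.1% coverage, with a median score of 3100, and met 7 SOX9 and 17 SOX6 intervals. The runs at chr1:141720168-141771258 and chr7:26790061-26840847 held 16 and 14 intervals and also met both factors. A run of 16 intervals on chromosome 16 from 21129391 to 21153977 differed from these. Its median score was 179, it was covered to 82.6%, and it met 0 intervals of each of the other 5 lists. How often runs of 10 or more meet each list is not given here, so these counts describe the named runs only.

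The other lists were read at the middle of the 26981 gaps under 1 kb and at the centres of the intervals beside them. For scale, H3K27ac intervals cover 2.84% of the length up to the last interval ends, H3K4me3 1.37%, H3K9me3 1.56%, SOX6 0.353% and SOX9 0.328%. Each of the 5 lists was less frequent at the middle of the gap than at the centres beside it. H3K27ac covered 29.7% (29.1% to 30.2%) of gap middles and 52.6% of the flanking centres. For H3K4me3 the shares were 16.8% (16.3% to 17.2%) and 20.3%, for SOX9 5.01% (4.75% to 5.27%) and 6.42%, and for SOX6 4.66% (4.41% to 4.92%) and 6.84%. H3K9me3, the heterochromatin mark, showed the same order at 1.57% (1.43% to 1.73%) and 3.65%. Where H3K27ac was on both flanking centres, it was also on the gap middle at 5662 gaps and missing from it at 4414. Whether reads can be placed in these gaps as well as beside them was not tested.

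What lay at the middle of a gap differed with the length of the gap. H3K4me3, the promoter mark, covered 10.98% of the middles of gaps under 200 bp, 14.7% from 200 to 500 bp, 26.2% (25.3% to 27.2%) from 500 to 1000 bp and 27.7% (26.9% to 28.6%) from 1 to 2 kb, and 8.74% from 2 to 5 kb. At the flanking centres H3K4me3 also differed with gap length, at 16.2%, 19.3%, 26.6%, 25.5% and 15.8% in the same order. Its share at the middle was thus below that of the flanking centres in gaps under 500 bp. From 500 to 1000 bp it was within counting error of theirs. At 1 to 2 kb H3K4me3 was more frequent at the middle than at the flanking centres. Of the 2722 gap middles of that class under H3K4me3, 338 had H3K4me3 on neither flanking centre and 1110 had it on both. SOX9 was at 4.60% of middles under 200 bp, 5.55% from 500 to 1000 bp, 4.60% from 1 to 2 kb and 1.27% from 2 to 5 kb. In the class from 500 to 1000 bp its share at the middle was within counting error of the 5.18% at the flanking centres.

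Gaps between high-scoring intervals held the transcription factors more often. With gaps divided into 4 groups by the lower score of their flanks, SOX9 was at 1.94% of middles in the lowest group and 10.02% (9.33% to 10.8%) in the highest, and SOX6 at 1.90% and 9.28%. H3K27ac went from 21.3% to 38.4%. H3K4me3 levelled off, at 13.0%, 15.1%, 19.5% and 19.4%, and H3K9me3 went from 2.51% to 1.02%. In all, 6.28% of gap middles were under SOX9 or SOX6 and 3.39% under both, while 68.8% (68.2% to 69.3%) had neither factor and neither H3K27ac nor H3K4me3.

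**Figure D3:**
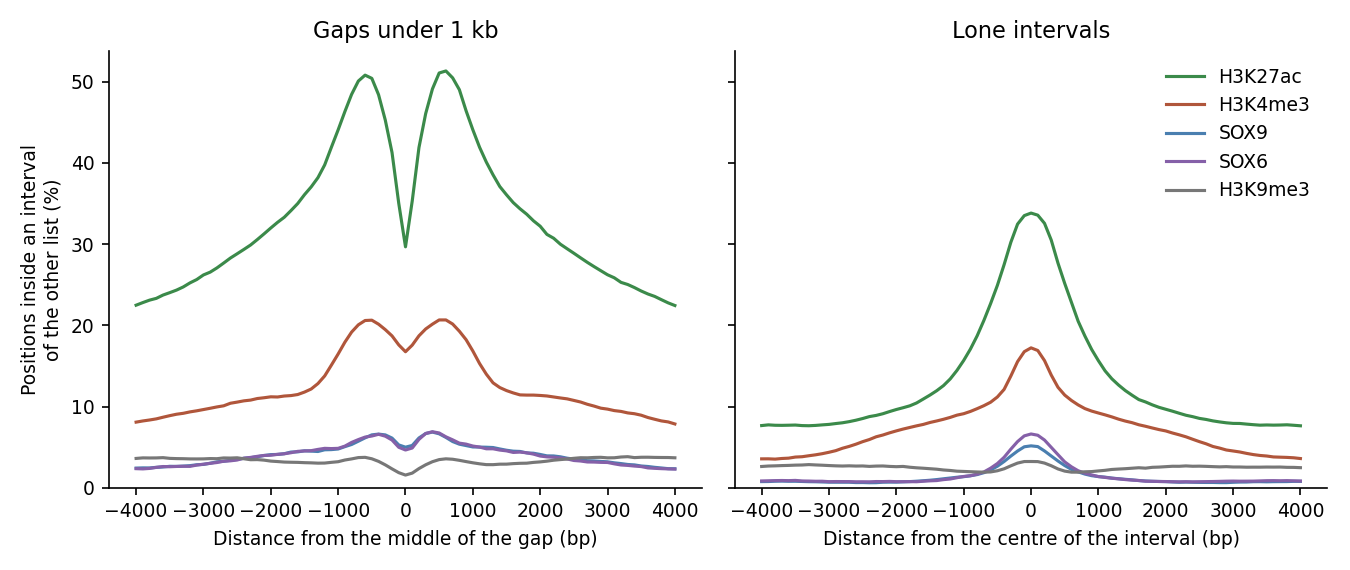
Percent of positions inside an interval of each other list, by distance in bp from the middle of the 26981 gaps under 1 kb (left) and from the centre of the 48299 lone H3K4me1 intervals (right). All 5 lists dip at the middle of the gaps, H3K27ac to 29.7%, and peak at the centre of lone intervals, where H3K27ac reaches 33.8%.

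Intervals with a close neighbour were acetylated more often than lone ones. Their centre lay in an H3K27ac interval in 51.4% (51.0% to 51.9%), against 33.8% (33.4% to 34.3%) of lone intervals. The acetylated share also followed the score, from 16.1% in the lowest of the 10 groups to 83.4% in the highest. Within the lowest group the shares were 22.3% (20.99% to 23.7%) of close and 12.3% (11.5% to 13.2%) of lone intervals, and within group 6 they were 51.2% and 32.9%. In the highest group they were 83.6% (82.7% to 84.5%) and 83.1% (81.8% to 84.4%), a difference within counting error.

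H3K4me3 and the SOX factors followed the score in other ways. H3K4me3 was at 11.4% of centres in the lowest group by score, at 23.7% in group 7 and at 17.0% in the highest. SOX9 was at 1.16% of centres in the lowest group and 19.0% (18.2% to 19.8%) in the highest, and SOX6 at 1.64% and 19.3%. In the highest group SOX9 lay at the centre of 23.6% (22.1% to 25.1%) of lone and 16.6% (15.6% to 17.5%) of close intervals, whereas in the lowest group the shares were 0.960% (0.738% to 1.25%) and 1.48% (1.13% to 1.94%). SOX6 in the highest group was at 23.8% and 17.0%, and in the lowest at 1.64% and 1.65%.

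Intervals with more neighbours within 50 kb, which include those within 1 kb, had higher scores. An interval had a median of 9 others within 50 kb of its centre and at most 45. The 3245 intervals with none had a median score of 97.4 and a median width of 774 bp, and the 19160 with 16 or more, of which 71.6% had a neighbour within 1 kb, had 217 and 1068 bp. Across intervals rho between score and number of neighbours was 0.193. Among the 48299 lone intervals alone it was 0.146, and their median score was 174 where 16 or more others lay within 50 kb. On the autosomes a window of 1 Mb held a median of 22 intervals (quartiles 5 and 52.5), and 275 of 2759 windows held none. The 10% of windows with most intervals held 32.4% of all autosomal ones.

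The densest windows lay side by side on chromosome 7. The window from 12000001 to 13000000 held 235 intervals, which covered 41.6% of it, and the one from 11000001 to 12000000 held 229. Further dense windows were chr10:88000001-89000000 (182 intervals), chr16:20000001-21000000 (182) and chr10:85000001-86000000 (181). All 5 also held 90 or more H3K27ac intervals, and every other list was present in them too. They held 42 to 75 H3K4me3, 15 to 34 SOX9, 19 to 45 SOX6 and 11 to 33 H3K9me3 intervals. Counts of these lists in other windows are not given here, so nothing particular to acetylation is read from them.

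The longest stretch without H3K4me1 was on chromosome 4 from 67919747 to 133267938. It was 65.3 Mb long and held 5 intervals of all the other lists together, 3 of them H3K9me3. Other long stretches were chr2:21025328-40752161 (19.7 Mb), chr19:11869953-23680164 (11.8 Mb), chrX:93422743-103774964 and chr6:9842812-20147548. Those on chromosomes 2 and 6 held 7 and 2 intervals of other lists, and 12 of the 14 in that on chromosome 19 were H3K9me3. The sequence of these stretches was not examined. Whether the lists used here are complete over them was not tested, which for chromosome 4 touches its density per input read as well as per Mb. They enter the densities per Mb below unless said otherwise.

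Density differed between autosomes per Mb and per input read, and the order was not the same. The input library held 16352477 reads that matched the genome exactly, of 20595997 aligned. Per Mb, chromosome 10 had most intervals (60.9), followed by chromosomes 7 (52.2) and 9 (47.4), and chromosomes 15 (20.2), 17 (22.9) and 2 (23.7) had fewest. Per 1000 exact-match input reads, chromosome 10 had 9.41 (exact 95% Poisson interval 9.19 to 9.64), chromosome 12 had 9.39 (9.03 to 9.77) and chromosome 20 had 7.55 (7.18 to 7.94). The fewest were on chromosomes 11, at 4.10 (3.96 to 4.25), 16, at 4.31 (4.18 to 4.44), and 9, at 4.63 (4.51 to 4.75). The median autosome had 5.65.

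Chromosomes 9, 16 and 7 were dense per Mb but not per input read. They had 2.02, 2.03 and 1.88 times the input reads per Mb of the median autosome and 1.504, 1.41 and 1.66 times its intervals per Mb, which left 0.819, 0.763 and 0.972 times its intervals per read. Chromosome 10, with 1.28 times the input, and chromosome 12, with 0.957 times, stayed dense on both scales. The coefficient of variation over the 20 autosomes was 31.1% per Mb and 24.0% per input read. The highest autosome exceeded the lowest 3.02-fold per Mb and 2.29-fold per read (2.20 to 2.39).

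Chromosome 11 was the lowest, and its input had the smallest share of exact matches. Only 44.7% of its aligned input reads matched exactly, against 85.8% for the median autosome. The next smallest share was 66.7%, on chromosome 1, which had 6.45 intervals per 1000 exact-match reads and 4.30 per 1000 aligned reads. With all aligned reads as the denominator the highest autosome exceeded the lowest 4.53-fold, and 2.38-fold once chromosome 11 was left out. With exact matches and without chromosome 11 it was 2.18-fold. On chromosome 4 the long stretch lowers the density per Mb, which was 31.3 with it and 42.4 without it.

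**Figure D4:**
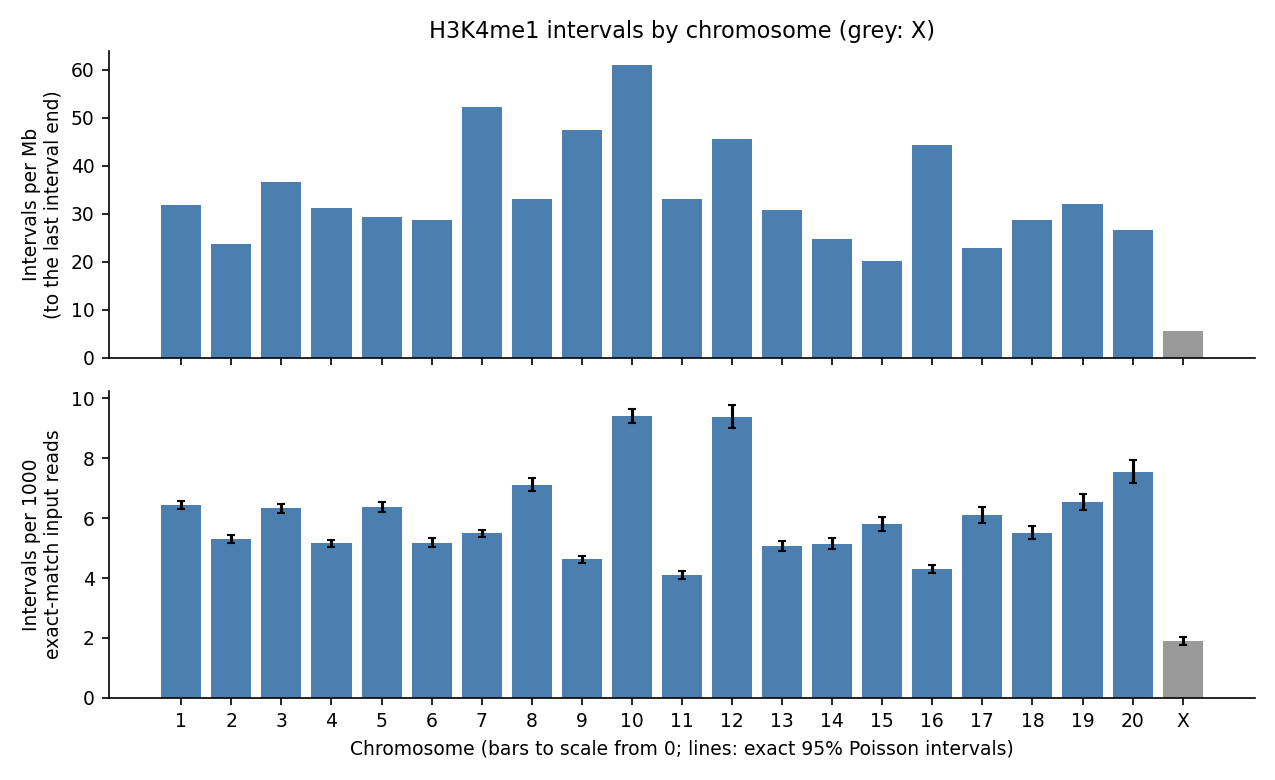
H3K4me1 intervals by chromosome, per Mb up to the last interval end (top) and per 1000 exact-match input reads (bottom), with exact 95% Poisson intervals as lines and X in grey. Chromosomes 7, 9 and 16 stand high per Mb and at or below the median autosome of 5.65 per 1000 reads, while 10 and 12 stand high in both.

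X was far below every autosome. It held 867 intervals, 5.61 per Mb and 1.90 (1.77 to 2.03) per 1000 input reads, which is 0.336 times the median autosome per read. Its input was 0.583 times that of the median autosome per Mb. Its intervals were narrower, with a median of 759 bp, and had a median score of 99.5, and 39.4% of them had a close neighbour. Of its 155 windows of 1 Mb, 73 held no H3K4me1 interval.

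Scores and widths followed the input as well. Across the 20 autosomes Spearman's rho between input reads per Mb and the median score of the intervals was 0.929, and for the median width it was 0.914. The median score was 188 on chromosome 7, 178 on 16 and 176 on 9, and 123 on 20 and 131 on 15. The median width was 1005 bp on chromosome 7 and 847 bp on chromosome 20. For intervals per Mb rho with the input was 0.759, and for intervals per input read it was -0.50. With windows of 1 Mb that hold an interval of any list as the length, these values were 0.911 for score, 0.899 for width, 0.750 per Mb and -0.58 per read. The points share their libraries and differ in length, and their base composition was not measured. Input per Mb and intervals per Mb share the length, and the last relation has the input on both axes, so no test was made. The share of intervals with a close neighbour ranged from 38.7% for chromosome 17 to 54.0% for chromosome 10.

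**Figure D5:**
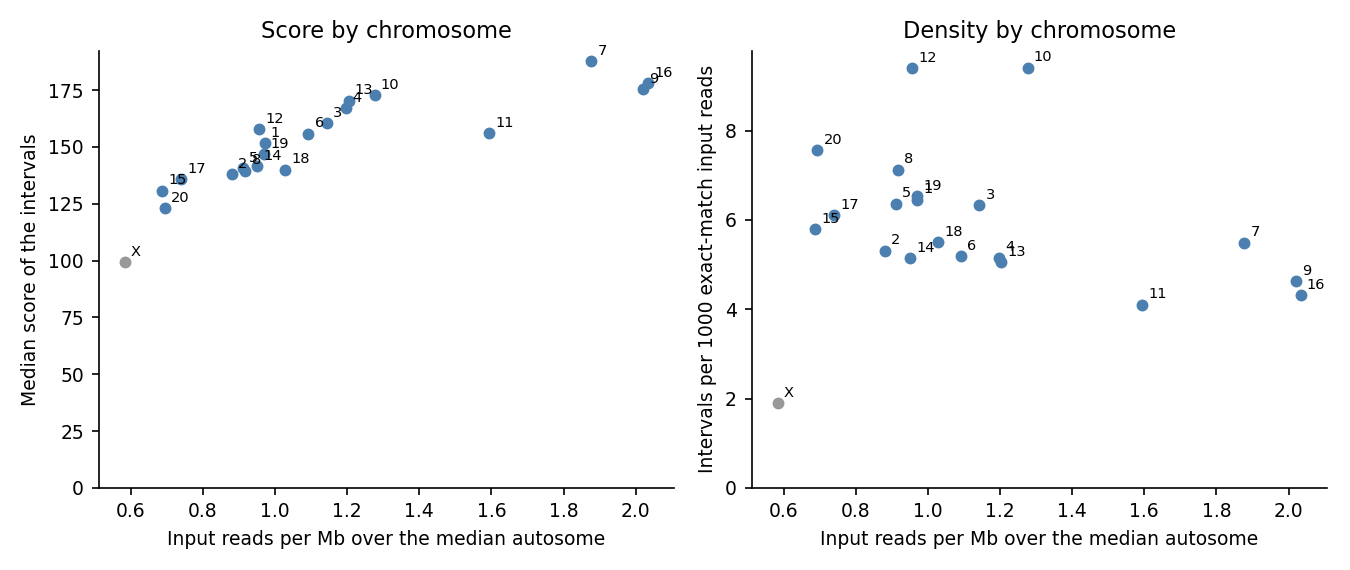
Median score of the H3K4me1 intervals (left) and intervals per 1000 exact-match input reads (right) against input reads per Mb over the median autosome, 1 point per chromosome, X in grey. Median scores stand higher where the input is higher (rho 0.929 over 20 autosomes), and chromosome 11 lies lowest among autosomes on the right.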

How the data were processed

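The peak list was deposited by the authors as intervals with a score, 1 list per library and not pooled. The interval names carry the name of MACS, per the file headers and names; no source used here states its version, its settings or which input it was set against. The input file gives raw read counts per chromosome, split by mismatches, per the file headers. The submitters' processing notes name CASAVA 1.8 and rn5. Of 38604970 input reads 53.4% aligned; no read depth of the immunoprecipitation was used here.

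Intervals were sorted by coordinate. A gap runs from one end to the next start, and gaps under 1000 bp join intervals into runs. Other lists were read at single positions. The last interval end over all 6 lists stood in for chromosome length. Shares carry 95% Wilson and rates exact Poisson intervals, which treat neighbouring intervals as independent and are too narrow. With 1 library there was no test. The list and the measures were chosen with earlier results of these data known. Named items are the first 5 of each kind, and the 3 highest and lowest autosomes. Python 3.11.15, pandas 2.3.3 and scipy 1.17.1 were used, and the code was tested on simulated lists.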

Additional observations from a re-analysis of the deposited data

How the results depend on the processing

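The median width of 945 bp became 1491 bp for intervals with a score above the list median and 1208 bp when intervals under 1 kb apart were joined. The share with a close neighbour, 47.7%, was 35.3% with a limit of 500 bp, 60.7% with 2 kb and 35.9% among intervals above the median score, a list with fewer intervals. Spearman's correlation of width with score was 0.894 without intervals at 3100 or more and 0.906 for lone intervals. The ratio of highest to lowest autosome per input read was 4.53 with all aligned reads, 2.48 by covered length, 2.43 above the median score and 2.18 without chromosome 11, and 2.24 to 2.38 with the other 3 inputs. H3K4me3 at gap middles was 12.7% with a limit of 500 bp and 19.7% with 2 kb. Leaving out chromosome 11, ranking within chromosomes and counting only windows with an interval of any list were chosen after seeing the data. No paired analysis was possible because each group has 1 library. Among autosomes the rate with the fewest input reads is that of chromosome 20, with 203185 exact matches and 1535 intervals, so the interval count sets its counting error.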
